A study of Mus musculus with 12 samples.

Results

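By their name, upstream antisense (UA) poly(A) sites (PASs) are 3′ ends of polyadenylated RNAs made from a gene's promoter in the opposite direction. The sites were chosen by the region label UA of the deposited PAS list, and no read number entered the choice. Whether the RNA of each site came from that promoter was not tested. The label was given to 3995 of the 56204 entries (7.11%), or 3968 of the 55813 distinct sites, and to 2302 of the 16627 listed genes (13.8%). The list comes from 3′READS+ of the hippocampus of 3 month old male C57BL/6 mice, an inbred wild-type strain. In acute mini-slices, from which the dentate gyrus had been trimmed, chemical LTP was induced with forskolin followed by forskolin with raised potassium and calcium, and control slices received the DMSO vehicle. The slices were collected at 1 hr or 3 hr, giving 4 groups (LTP 1 hr, LTP 3 hr, control 1 hr and control 3 hr) of 3 libraries each, with LTP and control slices taken from the same animals. The 12 columns of read counts carry names that match no label of a library and were not used here, so the levels of UA RNAs, their change after LTP and their amount relative to the other PASs of the gene were not analysed. All values below count sites or genes of 1 list that is common to the 12 libraries. This list holds more PASs and genes than the paper reports, and the number of reads behind each site was not examined. The paper's supplement states a cutoff of read number and relative abundance for its counts. No such cutoff was applied here. The paper left a control 3 hr library out of its APA analysis as an outlier. No site was left out here for that reason.

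Most mammalian promoters start transcription in both directions. The antisense RNA is usually short, because poly(A) signals are frequent in that direction while binding sites for U1 snRNP, which protects the sense RNA from premature cleavage and polyadenylation (C/P), are sparse. Most of these RNAs are destroyed by the nuclear exosome, and those that carry a poly(A) tail can be captured by 3′ end sequencing.

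The sequences below are shown because they hold the letters of a poly(A) signal on the antisense strand upstream of the start of a gene from the activity-related lists. Of the 12 genes with a UA PAS among the immediate early genes, the CREB family with its coactivators and the C/P factors, 10 had a promoter in the RefSeq table (GRCm38.p6), and *Creb3l4* and *Klf4* held AATAAA or ATTAAA on the antisense strand of the 250 bases before a start. Each is written 5′ to 3′ on the antisense strand from the base next to the start, with the hexamer in capitals.
Creb3l4, chr3:90243144-90243393, plus strand, the second of 3 listed promoters: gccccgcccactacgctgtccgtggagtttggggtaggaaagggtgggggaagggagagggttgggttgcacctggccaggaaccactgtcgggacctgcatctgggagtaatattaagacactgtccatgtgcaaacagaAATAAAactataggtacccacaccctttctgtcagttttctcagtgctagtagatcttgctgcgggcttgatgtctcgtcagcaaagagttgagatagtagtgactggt
Klf4, chr4:55532476-55532725, plus strand: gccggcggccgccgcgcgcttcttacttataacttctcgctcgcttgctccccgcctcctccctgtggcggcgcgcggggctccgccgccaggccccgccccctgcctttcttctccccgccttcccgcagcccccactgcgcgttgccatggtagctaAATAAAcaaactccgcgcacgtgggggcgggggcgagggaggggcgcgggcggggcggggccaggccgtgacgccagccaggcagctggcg
The hexamer began 142 bases upstream of the start in *Creb3l4* and 160 bases upstream in *Klf4*, and was AATAAA in both. Of all 27025 genes in the table, 16.7% held one of these hexamers on the antisense strand of this stretch in at least 1 promoter. Counted by promoter, 14.7% of all 32851 held AATAAA or ATTAAA on the antisense strand of this stretch and 15.9% on the sense strand. The list is in mm9 coordinates per the labels, so the positions of the PASs were not placed on these sequences, and a match of letters is not a poly(A) site.

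The UA PASs of genes linked to activity and to 3′ end processing were examined first, in the coordinates of the list. Of the 50 immediate early genes considered, which are switched on by neuronal activity without new protein synthesis, all 50 were listed and 7 (14.0%) had a UA PAS. These were *Dusp4*, *Dusp5*, *Inhba*, *Jund*, *Klf4*, *Nr4a2* and *Pim1*. The share was close to that over all listed genes (13.8%). In the CREB family and its coactivators, only some of which mediate cAMP-dependent transcription, 4 of 20 genes had one, *Atf1*, *Creb3l4*, *Crebl2* and *Ep300*. Among the C/P factors, *Clp1*, a subunit of cleavage factor II, was the only one of 25 listed genes with a UA PAS. No UA PAS was listed for *Notch1*, *Creb1*, *Homer1* or *Wdr33*, which had 3, 6, 5 and 8 other PASs.

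For each UA PAS the distance was measured to the first sense PAS, the most upstream of the other PASs of the gene. Where the start of the gene lies between these positions, this distance is an upper bound on how far upstream of the start the antisense RNA ends. The positions of the starts were not used here, and for 3 UA PASs in all, which lay downstream of the first sense PAS, it gives no bound. The bound was tightest in *Nr4a2*, an orphan nuclear receptor gene on the minus strand of chromosome 2. Its UA PASs at 56967593, 56968089 and 56971053 lay 744, 1240 and 4204 nt from an intronic PAS at 56966849. *Nr4a2* therefore had UA PASs both close to and well upstream of its first sense PAS. *Jund*, an AP-1 gene on the plus strand of chromosome 8, had UA PASs at 73221638 and 73219642, which lay 2673 and 4669 nt from its first sense PAS at 73224311. *Pim1*, which encodes a serine/threonine kinase, had the most UA PASs of these genes, 6 on chromosome 17 between 29624118 and 29627244. The 4 inner sites of *Pim1* lay at 29625856, 29626210, 29626329 and 29626395, and the outermost were 3126 nt apart. *Dusp5*, *Atf1*, *Crebl2* and *Clp1* had 2 each, like *Jund*, and in these genes the UA PASs were 438 to 1996 nt apart.

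*Klf4*, a zinc finger transcription factor gene on the minus strand of chromosome 4, had 1 UA PAS at 55547040, and its first sense PAS was an exon3 PAS, one in the 3′-most exon, 6446 nt away at 55540594. *Creb3l4* had 1 UA PAS on chromosome 3 at 90049075, 7584 nt from its first sense PAS. *Ep300*, which encodes a histone acetyltransferase that acts as a CREB coactivator, had 1 at 81414601 on chromosome 15, 4176 nt from an intronic PAS. *Inhba*, which encodes an activin subunit, had 1 at 16105202 on chromosome 13, 4241 nt from an internal exon PAS. *Dusp4*, a MAP kinase phosphatase gene, had 1 at 35868728 on chromosome 8, 13301 nt from its first exon3 PAS. The bounds of these genes with a single UA PAS thus ranged from 4176 to 13301 nt. The largest bounds of the 12 genes were those of *Atf1*, 32681 and 34161 nt. None of the UA PASs of the 12 genes lay within 5000 nt of a PAS of another gene on the same strand. Within 20000 nt on the same strand, a PAS of *Slc39a1* lay 6327 nt beyond the UA PAS of *Creb3l4*. A PAS of *Ypel4* lay 8227 and 8782 nt beyond those of *Clp1*.

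**Figure D1:**
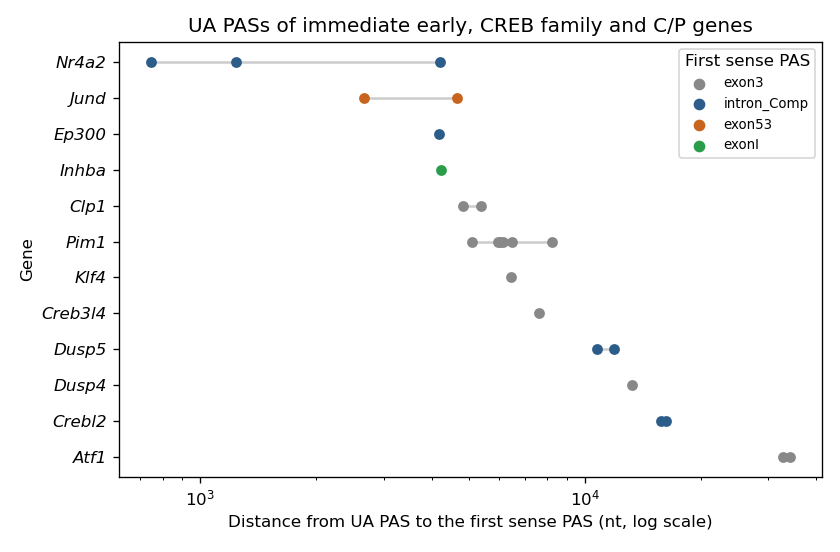
Distance in nt (log scale) from each UA PAS to the first sense PAS of its gene, for the 12 immediate early, CREB family and C/P genes with a UA PAS. Points are single UA PASs, coloured by the label of the first sense PAS, and the UA PASs of *Nr4a2* reach closest, 744 nt, while those of *Atf1* lie 32681 nt or more away.

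A single UA PAS was listed for 1494 genes (64.9%), and 808 genes (35.1%) had 2 or more. There were 112 genes with 5 or more, and these held 769 of the 3995 entries (19.2%). In genes with 2 or more, the outermost UA PASs were a median of 1174 nt apart (25th to 75th percentile, 446 to 2208 nt). No gene exceeded 3924 nt, and 69 of the 808 genes exceeded 3000 nt. The neighbouring UA PASs of a gene were a median of 370 nt apart (n = 1693), against 259 nt for neighbouring exon3 PASs of a gene (n = 16203). A gap of 100 nt or less separated 23.9% of the UA pairs and 28.7% of the exon3 pairs. The UA PASs were thus listed slightly further apart than those in the 3′-most exon. The length of the region that the authors allowed for the label is not given in the sources used here.

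**Figure D2:**
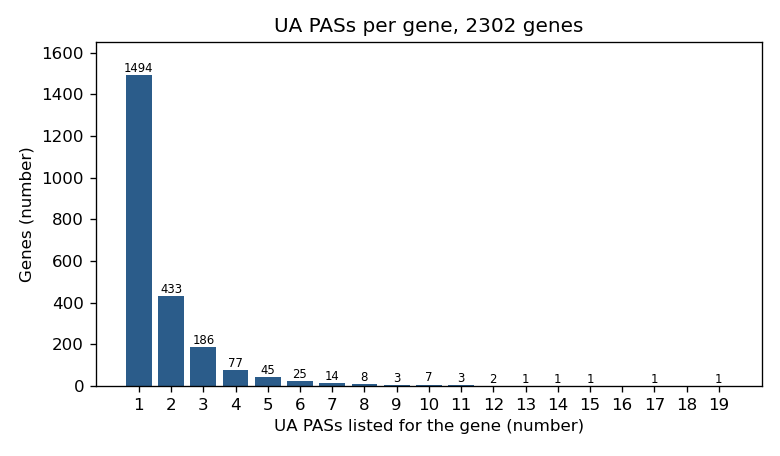
Number of genes (y axis) by the number of UA PASs listed for the gene (x axis), with the count above each bar. A single UA PAS was listed for 1494 genes, and the most, 19, for 1 gene.

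The genes with the most UA PASs were *Purb*, *Lrrc26*, *Krt12*, *AI314180* and *Dpf3*. *Purb*, which encodes a single-stranded nucleic acid-binding protein, had 19 on chromosome 11, between 6376312 and 6379695. They lay 1390 to 4773 nt from the first sense PAS of *Purb*, which has 2 other PASs, and no PAS of another gene on the same strand lay within 20000 nt of any of them. *Lrrc26* had 17, between 25141718 and 25145421 on chromosome 2, and no other PAS at all. Each of the 17 lay 1280 to 4983 nt from an exon3 PAS of *Grin1*, the gene of the obligatory NMDA receptor subunit, on the same strand, and that PAS came before the UA PASs in the direction of transcription. *Krt12*, a keratin gene of the corneal epithelium, had 15 with a single other PAS, an exon3 PAS 7237 nt or more away. *AI314180* had 14, with 18 other PASs of which 14 were intronic. *Dpf3*, which encodes a chromatin reader of the BAF complex, had 13, and the closest lay 255 nt from an intronic PAS. Of these 5 genes, *Lrrc26* alone had UA PASs within 5000 nt of a PAS of another gene on the same strand.

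The distance to the first sense PAS was then taken over the whole list. A first sense PAS on a single strand was available for 3856 UA PASs in 2227 genes. The distance had a median of 8038 nt (95% order-statistic interval, 7586 to 8646 nt, covering counting error only) and a 25th to 75th percentile of 3892 to 22820 nt. The interval takes UA PASs as independent, though those of a gene share its first sense PAS, so it is too narrow. With only the nearest UA PAS of each gene, the median was 9161 nt. The distance was 2000 nt or less for 305 UA PASs (7.91%), 5000 nt or less for 1343 (34.8%) and 10000 nt or less for 2148 (55.7%). The 3 UA PASs downstream of the first sense PAS are not counted in these shares. The bound is only as tight as the first sense PAS is near the start. Where that PAS carried the label exon5, taken to mean the first exon, the median was 1698 nt (n = 56), 55.4% of the distances were 2000 nt or less and all were 5000 nt or less. These 56 UA PASs come from few genes, since only 28 genes with a UA PAS had an exon5 PAS. Where the first sense PAS carried the label exon53, taken to mean the exon of a single-exon gene, the median was 3458 nt (n = 210). The most common first sense PASs were intron_Comp (an intronic PAS, read from its name as part of a composite terminal exon), with 1874 UA PASs and a median of 7680 nt, and exon3, with 1469 and a median of 10774 nt. How the authors assigned the label is not given in the sources used here, so the distances are a description.

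**Figure D3:**
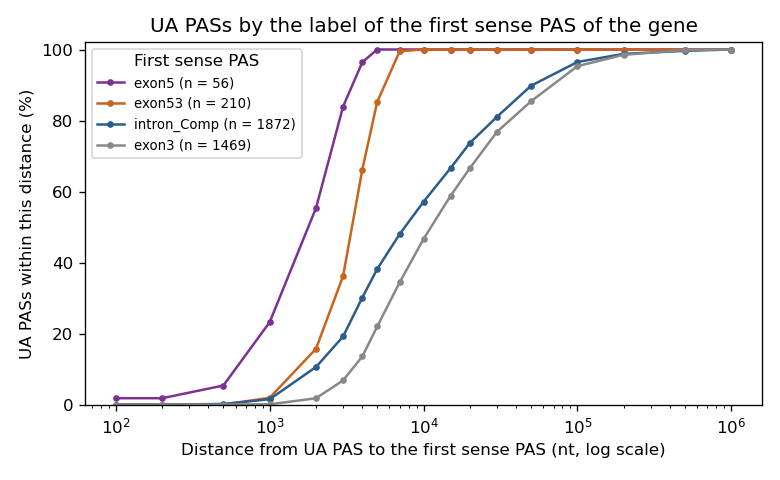
Cumulative percent of UA PASs (y axis) within a given distance in nt of the first sense PAS of the gene (x axis, log scale), by the label of that PAS, leaving out those downstream of it. The exon5 curve reaches 55.4% at 2000 nt and 100% at 5000 nt, while exon3 and intron_Comp reach farther.

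The shortest distances were 25 nt in *Bai1*, an adhesion G protein-coupled receptor gene, 180 nt in *Hyal1*, a hyaluronidase gene, and 255 nt in *Dpf3*. In *Bai1* the UA PAS at 74346611 and the exon5 PAS at 74346636 on chromosome 15 are the ends of RNAs from opposite strands. The longest were 629322 nt in *Ralyl*, 651134 nt in *Mctp1* and 752328 nt in *Mdga2*. In 3 genes, named after their values were seen, the UA PAS lay downstream of the first sense PAS, by 268571 nt in *Sorcs1*, 20648 nt in *Usp49* and 2170 nt in *C330021F23Rik*.

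Some UA PASs lay near the PASs of other genes. A PAS of another gene, itself not labelled UA, on the same strand lay within 5000 nt of 324 UA PASs (8.11%), against 4.18% of the 31279 exon3 PASs and 2.82% of the 15184 intronic PASs. The PAS of the other gene came before the UA PAS in the direction of transcription in 219 of the 324, beyond it in 52 and at the same position in 53. For exon3 PASs with such a neighbour, the corresponding numbers were 331 before, 671 beyond and 304 at the same position, of 1306. The UA PASs with a neighbour were therefore mostly located downstream of a PAS of another gene. The nearest PAS was an exon3 PAS for 207 of the 324 UA PASs and an exon53 PAS for 47. In genes with 5 or more UA PASs, 122 of 769 entries (15.9%) had such a neighbour, and in genes with 1 UA PAS, 92 of 1494 (6.16%). Besides *Lrrc26*, all UA PASs of *Plod2* (12), *Ppt2* (10) and *Ccdc17* (8), named after their values were seen, had such a neighbour. Whether RNA of the neighbouring gene contributes to these sites was not tested. Without the 324 entries, 3671 UA PASs in 2165 genes were left, or 13.0% of the listed genes.

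Some UA PASs are listed under a further gene. Of the 3968 distinct UA sites, 80 (2.02%) were listed under more than 1 gene, 27 of them as UA under both. In the other 53 the same site carried another label, most often exon53, with 28 sites in 11 genes. The label intron_Comp came next, with 12 sites. Of the 28, the most by far were UA PASs of *Plod2* that are also exon53 PASs of *B430319G15Rik*. The *Ptbp1* site at 79316502 on chromosome 10, for example, is also the exon53 PAS of *E130317F20Rik*. *Ptbp1* encodes a splicing regulator that represses neuronal exons. *Hist1h1e* and *Hist1h2be*, which are histone genes, share a UA site at 23716140 on chromosome 13.

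Genes with a UA PAS also had more PASs on the sense strand. Leaving out the 73 genes with UA PASs alone, the 2229 genes with a UA PAS had a median of 3 other PASs, against 2 for the 14325 genes without. The share of genes with a UA PAS was 7.90% (95% Wilson interval, 7.24 to 8.61%) where 1 other PAS was listed (n = 5888 genes) and 27.4% (25.7 to 29.1%) where 6 or more were (n = 2544). It was 10.7%, 12.9%, 15.5% and 18.8% with 2, 3, 4 and 5 other PASs. Without UA PASs near a PAS of another gene, the lowest and highest values were 6.98% and 26.5%. The intervals cover counting error only, and genes are not independent replicates. A gene with more reads can have more sites of each kind listed, and the part of the read number in this relation was not tested.

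**Figure D4:**
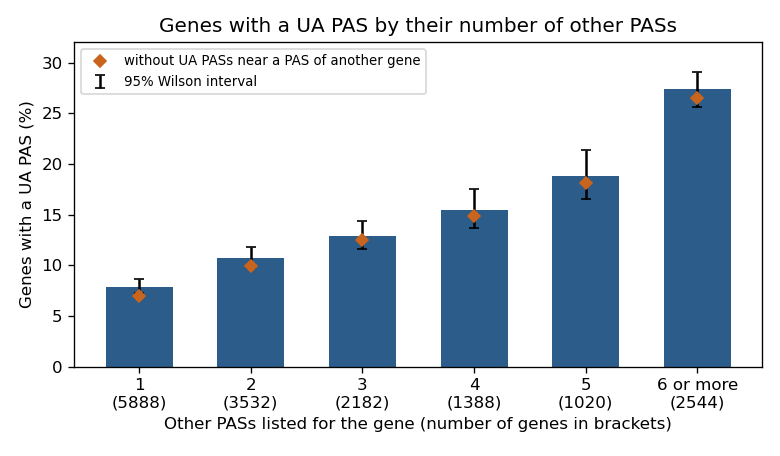
Percent of genes with a UA PAS (y axis) by the number of other PASs listed for the gene (x axis, number of genes in brackets); error bars are 95% Wilson intervals and diamonds leave out UA PASs near a PAS of another gene. The percent goes from 7.90% with 1 other PAS to 27.4% with 6 or more.

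Among the labels of the other PASs, the intronic ones differed most in percentage points. An intronic PAS was listed for 51.9% of the genes with a UA PAS (1156 of 2229) and for 30.8% of those without (4416 of 14325). The share with 2 or more exon3 PASs was 54.0% against 43.7%. An internal exon PAS (exonI) was listed for 6.10% against 2.62%, an exon5 PAS for 1.26% against 0.607%, and a PAS beyond the 3′-most exon (exon3ext) for 16.4% against 11.7%. At an equal number of other PASs the difference in intronic PASs was smaller. With 2 other PASs, an intronic PAS was listed for 35.4% of the 379 genes with a UA PAS and 26.0% of the 3153 without. With 4, the shares were 59.5% against 53.3%. Genes with 6 or more were pooled, so their numbers were not equal, and the shares were 86.4% against 80.4%.

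Gene groups were compared last. Potassium channel genes, which set neuronal excitability, had a UA PAS in 23 of 87 (26.4%, Wilson interval 18.3 to 36.6%), and *Kcna3*, a voltage-gated channel, had 6 of them within 2065 nt. *Kcna1* and *Kcna2*, which encode axonal channels, and *Kcna7* had 1 each. Glutamate receptor genes had one in 7 of 25 (28.0%, Wilson interval 14.3 to 47.6%), among them *Grik3*, *Grin2a* and *Grin2b*, each with 1. The *Grin2a* site at 9996315 on chromosome 16 was 4229 nt from an intronic PAS. GABA-A receptor genes had one in 1 of 12, *Gabrd*, the delta subunit of extrasynaptic receptors.

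Cytosolic ribosomal protein genes had a UA PAS in 18 of 83 (21.7%), among them *Rpl10a*, *Rpl13* and *Rpl24*, whose UA PASs lay 2623 to 3801 nt from the first sense PAS. It was 14 of 83 (16.9%) without those near a PAS of another gene. The UA PAS of *Rpl10a* was among those left out. Ribosomal protein genes have many near-identical processed copies, and whether reads of such copies contribute to these sites was not tested. Genes of the respiratory chain and ATP synthase had one in 7 of 89 (7.87%), among them *Atp5g2* and *Cox8a* with 3 each and *Cox6a2* and *Cox6b1* with 1 each. An exon3 PAS of *Itgad* on the same strand lay 1778 nt before the UA PAS of *Cox6a2*. The share was 22.2% for SR and hnRNP splicing factors (8 of 36), where *Hnrnpf* had 7 UA PASs over 2328 nt, *Hnrnph1* had 2, and *Hnrnpr* and *Hnrnpul1* had 1 each. No gene of the 17 U1 snRNP genes had a UA PAS, nor did the 14 astrocyte or the 14 microglia genes, where 0 allows a share of up to 18.4%, 21.5% and 21.5% (upper Wilson limits). Of 14 myelin genes, *Mbp*, the gene of myelin basic protein, had 2.

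Between these values lay the ubiquitin-specific peptidases with 11 of 48 genes (*Usp1*, *Usp10* and *Usp15* with 1 UA PAS each and *Usp24* with 2), the histone genes with 8 of 47 (*H2afz*, a variant histone gene, with 3), the solute carriers with 56 of 333 (*Slc16a11* with 6, and 1 each in *Slc10a1* and *Slc10a3*) and the Zfp zinc finger genes with 56 of 345 (*Zfp119b* with 2, and 1 each in *Zfp1*, *Zfp112* and *Zfp14*). The Rab GTPases had one in 8 of 66, with 3 in *Rab34*, 2 in *Rab23* and 1 each in *Rab20* and *Rab27a*. A PAS of another gene on the same strand lay within 5000 nt of 4 UA PASs of *Slc16a11* and 2 of *Rab34*. Genes with Eif symbols had one in 6 of 58. These include the initiation factor genes *Eif2s3x* with 3 and *Eif4a1* with 1, and also *Eif2ak2*, the gene of the kinase PKR, with 2 and *Eif2c3*, an Argonaute gene, with 1. The exosome and its cofactors had one in 2 of 19, *Exosc3*, a core subunit, and *Papd5*, a poly(A) polymerase. Genes of proteasome subunits and their chaperones had one in 3 of 48, the core subunit gene *Psma5* and the assembly chaperone genes *Psmd5* and *Psmg1*. Of the 21 groups, 10 lay above the 13.8% of all listed genes, and the Wilson interval held that value in 18, all but the potassium channels, the glutamate receptors and the ribosomal proteins. For the ribosomal proteins it also held that value without UA PASs near a PAS of another gene (10.3 to 26.3%), and when sites shared between genes were left out (15 of 78, upper limit 29.3%). No group was tested against the other genes, and the median number of other PASs per gene differed between groups, from 1 in microglia and respiratory chain genes to 4.5 in GABA-A receptor genes.

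**Figure D5:**
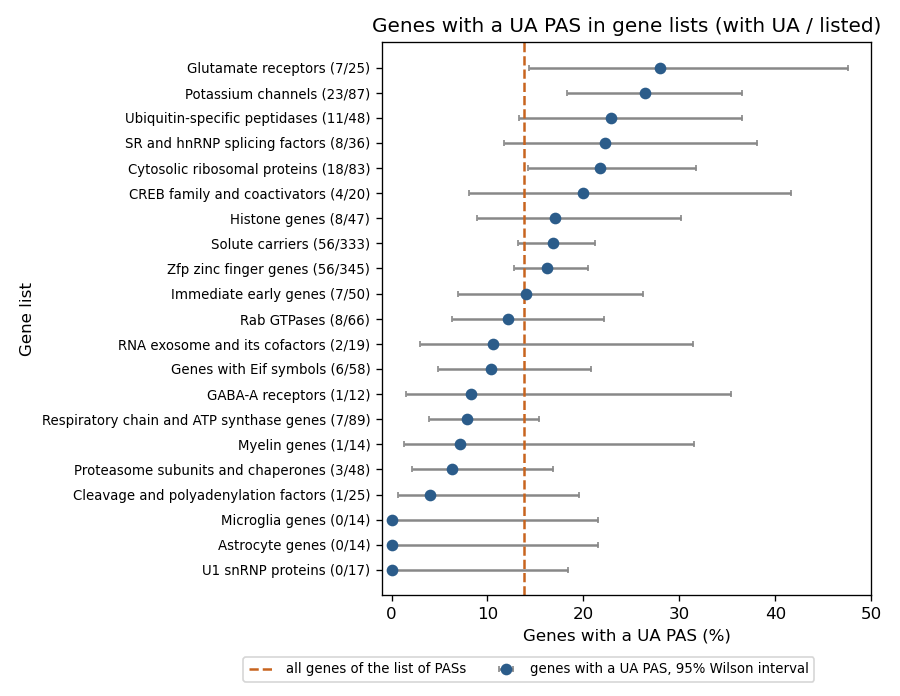
Percent of genes with a UA PAS (x axis) in 21 gene groups (y axis, number with a UA PAS and number listed); bars are 95% Wilson intervals and the dashed line is the 13.8% of all listed genes. Glutamate receptors (28.0%) and potassium channels (26.4%) lie at the top, and 3 groups lie at 0.

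The genes upstream were compared by name and strand in GENCODE vM21. Of 2074 genes with a UA PAS, 935 (45.1%) had their nearest upstream gene on the opposite strand, against 6315 of 12936 genes without a UA PAS (48.8%). No limit was set on the distance to that gene, so these are not counts of divergent gene pairs. Only genes lying wholly upstream were considered, so a gene that overlaps the start was left out. Whether the rule for the label UA passes over sites of such genes is not known from the sources used here. The share was 46.3% in the 147 genes with a UA PAS near a PAS of another gene and 45.0% in the other 1927. The share was thus lower by a few percentage points where a UA PAS was listed. The matched names cover 90.3% of the listed genes.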

How the data were processed

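3′READS+ libraries were made from 12 samples in 4 groups of 3. The authors mapped the reads with bowtie 2 (mm9 per the labels), identified PASs from reads that begin with Ts not found in the genome and clustered neighbouring PASs. The deposited table holds 1 list of PASs, with the gene, the position and strand of each site and its region label, and 12 columns of per-sample read counts. Those 12 columns were not used here, since their names match no label of a sample. A planned comparison of UA reads with the other reads of the gene was therefore not run, and the depth per library was not analysed. The region labels are not defined in the sources used here and were read from their names and positions.

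Sites, genes, distances and shares were counted with Python 3.11.15, pandas 2.3.3, numpy 2.4.6 and scipy 1.17.1, and figures were drawn with matplotlib 3.10.9. The distances, the UA PASs per gene and their merging, the neighbouring PASs and the upstream genes were first checked on small simulated lists with planted answers. The other counts had no such check. A neighbouring PAS lay on the same strand within 5000 nt, was of another gene and was not UA. The intervals (95%) cover counting error only and take the counted sites or genes as independent. Of the listed symbols, 15012 matched GENCODE vM21 and 16495 matched RefSeq. A promoter sequence (250 bases before to 50 after the start) was found for 77.4% of the genes with a UA PAS and 78.2% of all listed genes, below the 80% set as a minimum, so the comparisons of promoter composition and motifs between genes with and without a UA PAS are void and not given. The sequence around the PASs was not analysed here, since the genome used by the list was not used here.

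The members and gene lists were chosen with earlier results of these data known. The named genes were every immediate early, CREB family and C/P gene with a UA PAS, the 4 example genes *Notch1*, *Creb1*, *Homer1* and *Wdr33*, the 5 genes with the most UA PASs, the 3 UA PASs nearest to and the 3 farthest from the first sense PAS, and the first 4 genes of each other list in alphabetical order. Some genes that this rule names are not reported here. The alternatives were other windows, merged UA PASs, other choices of the sense PAS, and sites left out.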

Additional observations from a re-analysis of the deposited data

How the results depend on the processing

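No paired analysis was possible because no result comes from a test and the read columns carry no replicate number that matches a label. For the same reason no library was left out in turn. The alternatives for promoter composition and motifs were void, and that for the poly(A) signal near UA PASs was not run. Of the 3995 UA PASs, 3888, 3856 and 3671 were left under the 3 alternatives tried. Of the 2302 genes, 2254, 2227 and 2165 were left. All of these only leave out entries, so staying within 1.5 times says little. One of them, leaving out UA PASs near a PAS of another gene, was chosen after seeing the data. It moved the share of all listed genes with a UA PAS from 13.8% to 13.0% and the median distance to the first sense PAS from 8038 to 9039 nt, since it leaves out sites. The median was 9161 nt with only the nearest UA PAS of each gene and 23574 nt when measured to the first exon3 PAS, which lies farther downstream by construction. Merging UA PASs within 100 nt moved the share of genes with 2 or more from 35.1% to 32.4%. The share of UA PASs near a PAS of another gene was 1.93% within 1000 nt and 28.3% within 20000 nt. In genes with an exon3 PAS, the share with 2 or more exon3 PASs was 60.9% with a UA PAS and 47.8% without, and the share with an intronic PAS was 29.2% without a UA PAS. Genes with a UA PAS kept the higher share in both. The other alternatives moved no result beyond its counting interval.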

Other observations

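Chromosome X had the lowest share of genes with a UA PAS among the chromosomes with more than 6 listed genes, 48 of 566 (8.48%, 95% Wilson interval 6.46 to 11.1%), and chromosome 10 the highest, 139 of 804 (17.3%, 14.8 to 20.1%). On the other autosomes the share ranged from 11.6% on chromosome 1 to 16.4% on chromosome 12. None of the 6 listed genes of chromosome Y had one.

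By the gene type in RefSeq, a UA PAS was listed for 2216 of 15968 protein-coding genes (13.9%), 44 of 393 long non-coding RNA genes (11.2%, 8.45 to 14.7%) and 20 of 105 transcribed pseudogenes (19.0%, 12.7 to 27.6%). The 73 genes whose only listed PASs are UA PASs held 137 of them, and 52 of these genes had a single one. UA PASs lay on the plus strand in 2031 of 3995 entries (50.8%).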
